A study of Mus musculus with 11 samples.

Results

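The insulin-like growth factor axis was read here as 10 genes in newborn mouse liver: the ligand genes Igf1 and Igf2, the receptor genes Igf1r and Igf2r, Igfals, and the binding protein genes Igfbp1 to Igfbp5. They were chosen by symbol, and all 10 passed the filter on dim signals, out of 15960 genes that did. The array carries 20 probes for them, of which 19 passed. The data were 11 livers of newborn mice on a hybrid 129 x C57BL/6 background, 1 array per liver. The 3 mutants of day 0 (the day of birth) and the 3 mutants of day 2 carried AFP-Cre, a Cre recombinase driven by the alpha-fetoprotein promoter, together with Rosa26-lsl-NICD, from which Cre-expressing cells make the active intracellular part of Notch. The 2 controls of day 0 and the 3 controls of day 2 carried Rosa26-lsl-NICD alone, so all 11 animals had this allele and no group had Cre alone. This promoter is active in hepatoblasts and fetal hepatocytes, and the arrays read the RNA of all cells in the liver samples.

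The axis carries growth signals from the liver to other tissues and acts within the liver itself. Growth hormone acts on its hepatocyte receptor, and signalling through STAT5 drives Igf1, the gene for the main circulating growth factor after birth. Igf2 is the main growth factor gene of the fetal liver. Most circulating ligand is bound to binding proteins, which prolong its life in blood and limit its access to the type 1 receptor.

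For the liver label, hepatocyte markers were read: 8 of the 10 listed (Apoa1, Apoc3, Ttr, Fgb, Tat, Cps1, Hpd and G6pc) were tested, and each was well above background on all 11 arrays. Across genes, the lowest correlation of an array with another of its group was 0.983 or more outside the day 0 mutants. For mutant day 0 replicates 1, 2 and 3 it was 0.954, 0.952 and 0.952. On mutant day 0 replicate 3, 604 genes lay at least 2-fold above and 470 at least 2-fold below every other array, against at most 66 in either direction on any other. Pup sex, read from sex-linked genes, was male for both day 0 controls and female for all 3 day 0 mutants, so sex and genotype cannot be told apart at day 0. At day 2 each genotype had 1 male and 2 females. The 75th percentile of the processed signal lay between 607.72 and 1301.5, and between 63.3% and 68.6% of an array's spots counted as well above background. At day 2 this percentile was 1301.5, 1052.8 and 1112.4 in mutants, above the 815.22, 793.65 and 974.88 of controls. Levels are relative to this percentile, so its split by genotype enters every day 2 difference. Precision is limited by the number of arrays, and the p-values cover the spread between these animals alone.

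All levels below are log2 of the probe signal over its array's 75th percentile, so that 0 is the level of that percentile and 1 unit is a 2-fold difference. A gene was read from its brightest tested probe. Levels of different genes are not set against each other, because probes differ in brightness. Differences are mutant minus control, and a gene was called when its p-value from limma, adjusted by the Benjamini-Hochberg method over all 15960 genes, was under 0.05.

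Over both days 4 of the 10 genes fell and none rose: Igf1, Igf2, Igfbp2 and Igfbp4. Of all genes tested, 15.7% were called in this comparison (8.78% rose and 6.92% fell). The median difference of the 10 genes was -0.48, against -0.05 over all genes. At day 0 only Igfbp2 was called among the 10, and it fell. The share over all genes was 2.28% (1.59% rose and 0.689% fell). At day 2, Igf1, Igf2 and Igfbp4 fell and Igf1r rose, where 16.2% of all genes were called (9.61% rose and 6.56% fell), and the medians were -0.74 for the 10 genes and -0.10 for all genes. With pup sex as a covariate, Igfbp2 alone of the 4 remained called over both days (limma adjusted p = 0.146, 0.0556 and 0.134 for Igf1, Igf2 and Igfbp4). The share of all genes called was then 6.75%. The sex effect in this fit comes from the day 2 arrays alone. It is assumed to be the same at day 0, where sex and genotype coincide. With mutant day 0 replicate 3 left out, 7 of the 10 genes were called at day 2, where 4766 of 15948 genes were called. None of the 10 was called for a difference between the days in the mutant effect by limma, against 0.269% of all genes, and 3 of them (Igf2, Igf1r and Igfbp2) had an unadjusted p under 0.05, as did 14.6% of all genes. The comparisons at day 0, at day 2 and over both days share their arrays and are not independent of each other.

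Counted by overlap instead, 3 of the 10 genes (Igf2, Igfbp2 and Igfbp4) were lower in every mutant than in every control of its day on both days, and none was higher, against 6.88% and 7.22% of all genes. For Igf2 and Igfbp4 this holds for the probe read alone, because their other probes overlapped between genotypes at day 0. At day 0, 4 were lower without overlap and 1, Igf2r, was higher, against 15% and 16.4% of all genes. At day 2, 6 were lower and Igf1r was higher, against 24.3% and 20.6%. Between the days, 1 was higher and 1 lower at day 2 in mutants, against 20.8% and 21.7%, and 5 were higher and 2 lower in controls, against 28.5% and 27.6%. The shares over all genes are large because the groups are of 2 or 3 arrays.

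**Figure D1:**
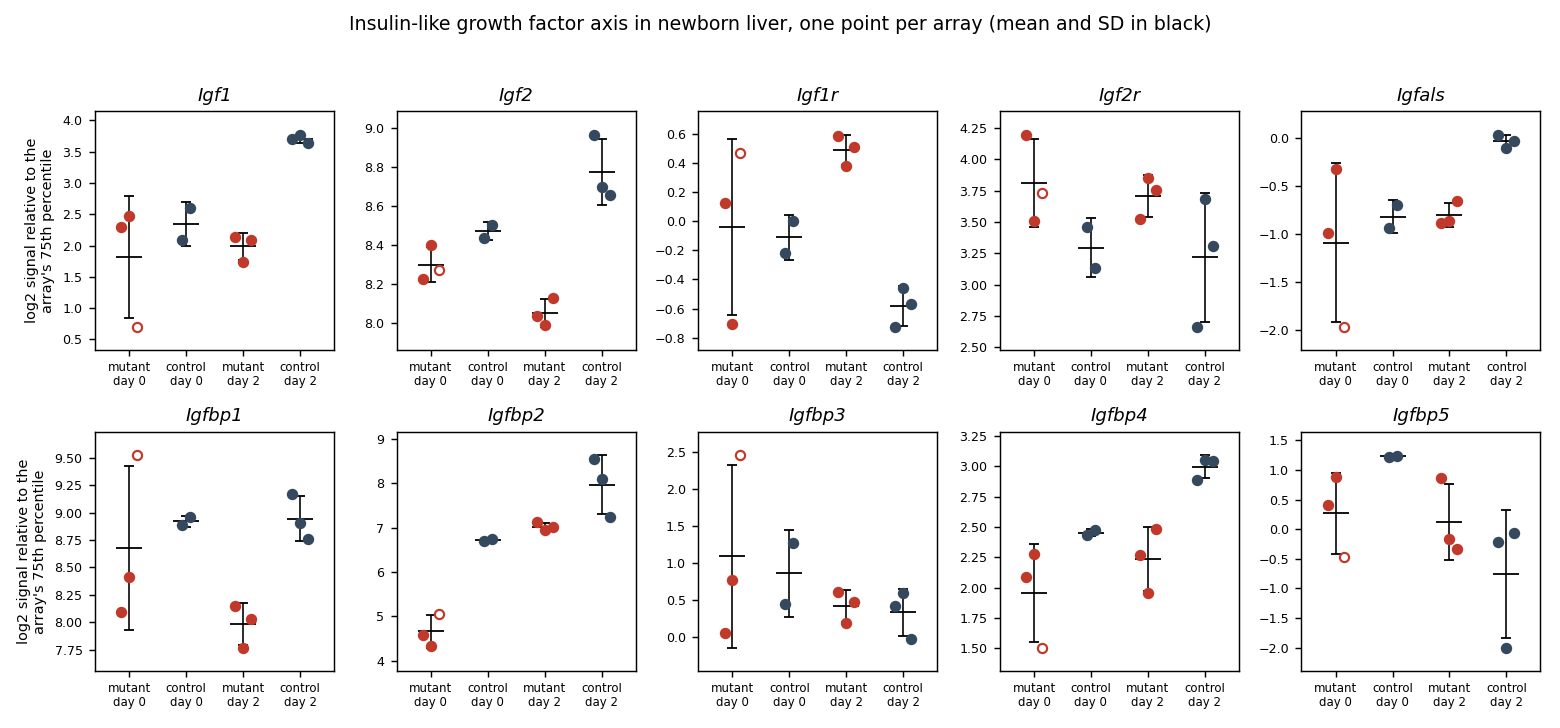
Level of each of the 10 genes (vertical axis, log2 signal over the array's 75th percentile) on every array, with mutants in red left of controls in dark blue for day 0 and then day 2, and group mean and SD in black; the open point is mutant day 0 replicate 3. At day 2 the mutants lie below all controls for Igf1, Igf2, Igfals, Igfbp1, Igfbp2 and Igfbp4 and above them for Igf1r.

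Igf1 encodes the ligand that growth hormone induces in hepatocytes. At day 2 its level was 2.13, 1.74 and 2.09 in mutants, against 3.70, 3.77 and 3.64 in controls. Day 0 values were 2.30, 2.47 and 0.70 in mutants and 2.09 and 2.60 in controls. The day 2 controls stood above every other array, and the remaining groups overlapped. Igf1 was 3.28-fold lower in day 2 mutants, a difference of -1.72 ± 0.40 (SE, limma adjusted p = 0.0196, n = 3 each). Within slides 1, 2 and 3 this difference was -1.57, -2.03 and -1.55. At day 0 the difference was -0.52 ± 0.45 (limma adjusted p = 0.625). Over both days it was -1.12 ± 0.30 (limma adjusted p = 0.0347). This last call was lost with slide as a block (-1.03, limma adjusted p = 0.0607), with no filter on dim probes (adjusted p = 0.0522) and when any control array or any day 2 mutant array was left out (adjusted p from 0.0571 to 0.139). The day 2 call was lost without control replicate 1 or 2 or mutant replicate 2 or 3 of that day, at adjusted p from 0.05 to 0.0754.

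Between birth and day 2 the Igf1 level differed by 1.36 ± 0.45 in controls, with no overlap of the days, and by 0.17 ± 0.40 in mutants (limma adjusted p = 0.0815 and 0.784). The difference between these was -1.19 ± 0.60 (limma adjusted p = 0.401). Leaving out mutant day 0 replicate 3, whose level of 0.70 was the lowest of the 11, gave -1.75 (limma adjusted p = 0.0242), and the control difference of 1.36 was called (adjusted p = 0.00221). The control levels themselves are the same in that fit.

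Igf1 was read by 3 tested probes. The one at chr10:87343472-87343531 (mm8, plus strand) gave the levels above. The probe at chr10:87360570-87360629, which the array carries in 10 copies, differed by -1.70 ± 0.39 at day 2 (limma adjusted p = 0.0202, here over all tested probes). The dimmest, at chr10:87292436-87292495, was well above background in all 3 day 2 controls and in 1 of 3 day 2 mutants, and on no day 0 array. It passed the filter only through the day 2 controls, so its fitted day 2 difference of -1.64 is a description and adds no support to the other 2.

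Igf2, an imprinted gene expressed from the paternal allele, encodes the fetal ligand. It stood at day 2 at 8.04, 7.99 and 8.13 in mutants, against 8.97, 8.70 and 8.66 in controls. The levels on the day of birth were 8.23, 8.40 and 8.27 in mutants and 8.44 and 8.51 in controls. The mutants lay below every control of their day on both days, by more at day 2 in these values. The difference between the days, -0.551 ± 0.195, was not called (limma adjusted p = 0.25). In the 9 settings other than leaving out 1 array it ran from -0.56 to 0.05. Igf2 was 1.65-fold lower in day 2 mutants, a difference of -0.72 ± 0.13 (SE, limma adjusted p = 0.00584, n = 3 each). The difference within slides 1, 2 and 3 was -0.93, -0.71 and -0.53. At day 0 it was -0.17 ± 0.15 (limma adjusted p = 0.616), and over both days -0.45 ± 0.10 (limma adjusted p = 0.0144). The day 2 difference was -0.20 after quantile normalization and -0.19 in the authors' deposited table, and neither was called (limma adjusted p = 0.356 and 0.393). Over both days these settings gave -0.22 each (adjusted p = 0.164 and 0.177), and leaving out day 0 control replicate 1 or 2 also ended that call (adjusted p = 0.0527 and 0.0681).

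No spot of the Igf2 probes, or of any other probe for the 10 genes, was saturated on any array. The level above came from the probe at chr7:142460185-142460245 (mm8, minus strand). The other Igf2 probe, at chr7:142460600-142460659, differed by -0.79 ± 0.18 at day 2 and by -0.56 ± 0.14 over both days (limma adjusted p = 0.0199 and 0.0251 over probes). On this other probe the genotypes overlapped at day 0, with mutant replicate 2 at 7.37 and control replicate 1 at 7.32.

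The 250 bases before a start listed for each ligand gene are shown because both genes fell, and because each holds the letters TGGGAA, the core of the site bound by RBPJ, the DNA-binding partner of NICD. The sequences are RefSeq's on GRCm38.p6, written 5′ to 3′ on the gene's strand with the matched letters in capitals (TTCCCA where the match is on the other strand). The Igf1 window is chr10:87860861-87861110 on the plus strand, with the match 91 to 86 bases before the start. This is the only Igf1 start in the table used, and it lies 2846 bases inside the span that RefSeq gives the gene. The Igf2 window is chr7:142666817-142667066 on the minus strand, at the most upstream of the 4 starts listed, with the match 47 to 42 bases before it.
Igf1: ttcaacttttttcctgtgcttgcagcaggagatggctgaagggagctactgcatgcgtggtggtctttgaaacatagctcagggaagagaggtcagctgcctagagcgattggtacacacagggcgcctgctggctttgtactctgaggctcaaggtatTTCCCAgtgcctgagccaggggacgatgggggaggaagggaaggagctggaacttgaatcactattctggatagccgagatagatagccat
Igf2: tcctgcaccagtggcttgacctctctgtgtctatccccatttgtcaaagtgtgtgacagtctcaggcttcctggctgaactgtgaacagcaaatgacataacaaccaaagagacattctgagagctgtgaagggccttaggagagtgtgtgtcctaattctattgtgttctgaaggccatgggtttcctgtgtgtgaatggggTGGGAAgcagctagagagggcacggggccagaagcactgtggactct
Of all 32851 windows of this length, 21.6% hold TGGGAA on either strand, and 2 of the 10 genes do. Of the other windows, those of Igfbp3 and Igfbp4 also lie inside the gene's span, 1575 and 1239 bases from its start. A match of letters is not a bound site.

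Igf1r encodes the tyrosine kinase receptor through which both ligands act. Its level at day 2 was 0.58, 0.38 and 0.51 in mutants, against -0.72, -0.46 and -0.57 in controls. On the day of birth it was 0.13, -0.71 and 0.47 in mutants and -0.22 and 0.00 in controls. The genotypes were apart at day 2 and overlapped at day 0. Igf1r was 2.10-fold higher in day 2 mutants, a difference of 1.07 ± 0.26 (SE, limma adjusted p = 0.0233, n = 3 each), with 1.31, 0.83 and 1.08 within slides 1, 2 and 3. The differences at day 0 and over both days were 0.07 ± 0.29 and 0.57 ± 0.20 (limma adjusted p = 0.933 and 0.0813). Leaving out any 1 of the 6 day 2 arrays ended the day 2 call, with differences of 1.00 to 1.14 and adjusted p from 0.0508 to 0.0821. Without mutant day 0 replicate 2, the lowest of that group, the gene was called over both days (0.74, adjusted p = 0.00546).

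The 4 Igf1r probes all gave positive day 2 differences. The one at chr7:68105625-68105684 (mm8, plus strand) is that reported above. Those at chr7:68101127-68101186 and chr7:68100183-68100242 differed by 1.04 ± 0.30 and 0.79 ± 0.24 (limma adjusted p = 0.0524 and 0.0574 over probes). The dimmest, at chr7:68061142-68061201, was not well above background on any day 2 control array, where it has only a bound. Its fitted difference was 0.60 ± 0.43 (limma adjusted p = 0.403). With the mean of all 4 probes in place of the brightest, the gene differed by 0.88 at day 2 (limma adjusted p = 0.0661).

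Igf2r encodes the cation-independent mannose 6-phosphate receptor, which takes up IGF2 for degradation. Its level at day 0 was 4.20, 3.51 and 3.73 in mutants, against 3.46 and 3.13 in controls. At day 2 it was 3.53, 3.85 and 3.75 in mutants and 2.66, 3.68 and 3.31 in controls. All day 0 mutants lay above both day 0 controls, and the genotypes overlapped at day 2. The differences of 0.52 ± 0.30 and 0.49 ± 0.27 at these days were not called (limma adjusted p = 0.468 and 0.259). The day 2 difference was 0.21 without control replicate 1, the lowest array, and 0.72 without control replicate 2 (adjusted p = 0.639 and 0.135). The day 0 difference was 0.32 without mutant replicate 1, the highest array (adjusted p = 0.622). The interval over both days, 0.04 to 0.96 (95%, not adjusted), spans from nearly no difference to nearly 2-fold. Its probe lies at chr17:12525901-12525959 (mm8, minus strand).

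**Figure D2:**
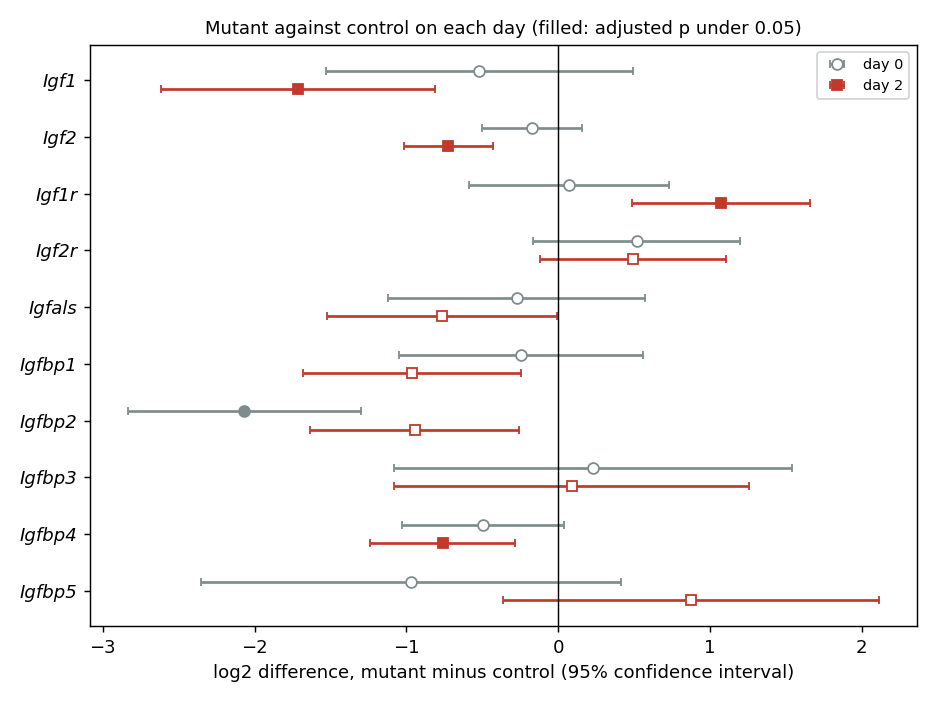
Difference of each gene between mutants and controls (horizontal axis, log2 mutant minus control, with 95% confidence interval), day 0 as grey circles above day 2 as red squares; filled marks have a limma adjusted p under 0.05. Only Igfbp2 is filled at day 0 (-2.07), and Igf1, Igf2, Igf1r and Igfbp4 are filled at day 2 (-1.72, -0.72, 1.07 and -0.76).

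Igfals encodes the acid-labile subunit, a liver protein that holds ligand and binding protein together in a long-lived complex in blood. It was measured at day 2 at -0.88, -0.86 and -0.65 in mutants, against 0.04, -0.10 and -0.03 in controls. Day 0 values were -0.99, -0.32 and -1.96 in mutants and -0.94 and -0.69 in controls. The day 2 controls were the highest group and stood apart from the day 2 mutants, while the day 0 mutants spanned the day 0 controls. The day 2 difference was -0.77 ± 0.34 and was not called (limma adjusted p = 0.158). When mutant day 0 replicate 3, the lowest array, was left out, the same difference had an adjusted p of 0.0132. The difference over both days without mutant day 0 replicate 2 was -0.71 (adjusted p = 0.0355), without replicate 3 of that group -0.30 (adjusted p = 0.151), and with all arrays -0.52 (adjusted p = 0.205). Its probe lies at chr17:24608906-24608965 (mm8, plus strand).

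Among the binding proteins, 2 fell over both days (Igfbp2 and Igfbp4), and Igfbp1, Igfbp3 and Igfbp5 were not called. In RefSeq's GRCm38.p6 annotation Igfbp2 lies next to Igfbp5 and Igfbp1 next to Igfbp3. Over both days the first pair differed by -1.51 and -0.05, and the second by -0.60 and 0.16.

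Igfbp2 encodes a binding protein made in large amounts by the fetal liver. Its level at day 0 was 4.59, 4.34 and 5.05 in mutants, against 6.70 and 6.75 in controls. At day 2 it was 7.12, 6.94 and 7.01 in mutants and 8.56, 8.10 and 7.25 in controls. From low to high the groups ran day 0 mutants, day 0 controls, day 2 mutants and day 2 controls, and no neighbouring groups overlapped. Igfbp2 was 4.19-fold lower in day 0 mutants, a difference of -2.07 ± 0.34 (SE, limma adjusted p = 0.017), with -2.11 and -2.42 within slides 1 and 2. Over both days it was 2.84-fold lower (-1.51 ± 0.23, limma adjusted p = 0.00248), and this call held in all 20 other settings. At day 2 the difference was -0.94 ± 0.31 (limma adjusted p = 0.066), with -1.44, -1.15 and -0.24 within slides 1, 2 and 3. Without day 2 control replicate 3, the lowest of its group, it was -1.30 (adjusted p = 0.00898), and without mutant day 0 replicate 3 the unchanged -0.94 had an adjusted p of 0.0391. It was -0.65 (adjusted p = 0.2) without day 2 control replicate 1, -0.45 (adjusted p = 0.341) after quantile normalization and -0.55 (adjusted p = 0.272) in the authors' deposited table. The day 0 call was lost with pup sex as a covariate (-2.53, limma adjusted p = 0.0886) and without mutant replicate 1 or 2 or control replicate 1 or 2 of day 0 (adjusted p from 0.0501 to 0.145).

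Igfbp2 was also the only one of the 10 genes called between the days. In mutants it was 5.15-fold higher at day 2 than at day 0 (2.37 ± 0.31, limma adjusted p = 0.00221), where 20.7% of all genes were called and 9.37% rose, and this held in all 20 other settings. In controls it was 2.36-fold higher (1.24 ± 0.34, limma adjusted p = 0.0481), where 11.2% of all genes were called and 5.48% rose. The control call held in 6 of 20 other settings, and was lost without either day 0 control (adjusted p = 0.205 and 0.203), without day 2 control replicate 1 or 2 (0.0972 and 0.12), and without any mutant array except day 0 replicate 3 (0.0538 to 0.0742). The mutant effect on Igfbp2 was smaller at day 2 than at day 0 by 1.12 ± 0.46, which was not called (limma adjusted p = 0.304). Its single probe lies at chr1:72785310-72785369 (mm8, plus strand).

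The Igfbp2 promoter window is shown because this gene had the largest difference of the 10 at day 0. It is chr1:72824230-72824479 on the plus strand (GRCm38.p6, RefSeq), at the most upstream of the 2 starts listed, and holds none of the motifs searched.
Igfbp2: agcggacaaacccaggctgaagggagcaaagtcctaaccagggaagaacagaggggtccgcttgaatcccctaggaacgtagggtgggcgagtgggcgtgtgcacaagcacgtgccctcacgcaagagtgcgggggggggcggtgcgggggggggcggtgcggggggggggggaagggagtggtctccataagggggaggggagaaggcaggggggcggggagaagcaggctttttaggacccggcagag
The search covered TGGGAA, the insulin response element core bound by FOXO factors (CAAAACA) and the spacing bound by STAT5 (TTCNNNGAA), each on both strands. No match of one overlapped a match of another in the 10 windows.

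Igfbp4 encodes a binding protein that mostly restrains ligand action. Day 2 levels were 2.26, 1.95 and 2.48 in mutants, against 2.89, 3.05 and 3.04 in controls. The day 0 levels were 2.08, 2.28 and 1.51 in mutants and 2.43 and 2.48 in controls. Mutants lay below all controls of their day on both days. Igfbp4 was 1.69-fold lower in day 2 mutants (-0.76 ± 0.21, SE, limma adjusted p = 0.0393), with -0.62, -1.10 and -0.56 within slides 1, 2 and 3, and -0.63 ± 0.16 over both days (limma adjusted p = 0.0274). The day 0 difference of -0.50 ± 0.24 was not called (limma adjusted p = 0.367). The call over both days was lost with slide as a block (-0.62, limma adjusted p = 0.0632), and the day 2 call held in 6 of 20 other settings. Left out singly, either day 0 control, any day 2 control, mutant day 0 replicate 1 and day 2 mutant replicates 1 and 2 each ended the day 2 call (adjusted p from 0.0512 to 0.137). Over both days, either day 0 control, day 2 control replicates 2 and 3 and day 2 mutant replicates 1 and 2 did so (0.052 to 0.0981).

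The level came from the probe at chr11:98868110-98868169 (mm8, plus strand). The other Igfbp4 probe, at chr11:98864367-98864426, differed by -0.51 ± 0.21 at day 2 and -0.43 ± 0.16 over both days (limma adjusted p = 0.159 and 0.119 over probes), the same direction but not called. On this other probe the genotypes overlapped at day 0, with mutant replicate 2 at 1.40 and the controls at 1.35 and 1.39.

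Igfbp1 encodes a binding protein of hepatocytes that insulin represses and fasting raises. Day 2 levels were 8.15, 7.77 and 8.03 in mutants, against 9.17, 8.91 and 8.76 in controls. On the day of birth it was 8.10, 8.41 and 9.52 in mutants and 8.89 and 8.96 in controls. The day 2 mutants lay below every control, and mutant day 0 replicate 3 was the highest of the 11 arrays. The day 2 difference was -0.96 ± 0.32 (limma adjusted p = 0.071), and -1.02, -1.14 and -0.73 within slides 1, 2 and 3. Without mutant day 0 replicate 3 the same -0.96 had an adjusted p of 0.003, and without replicate 1 of that group 0.0475. Over both days the difference was -0.60 ± 0.24 (limma adjusted p = 0.126), and -0.82 (adjusted p = 0.00237) without that replicate 3. After quantile normalization and in the authors' deposited table it was nearer to 0, at -0.38 and -0.41 over both days and -0.45 and -0.49 at day 2, none of them called (limma adjusted p from 0.17 to 0.276). The probe lies at chr11:7102442-7102501 (mm8, plus strand).

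The Igfbp1 window is shown because it alone among the 10 holds CAAAACA, 108 to 102 bases before the start. It is chr11:7197537-7197786 on the plus strand (GRCm38.p6, RefSeq), and 5.56% of all windows hold these letters.
Igfbp1: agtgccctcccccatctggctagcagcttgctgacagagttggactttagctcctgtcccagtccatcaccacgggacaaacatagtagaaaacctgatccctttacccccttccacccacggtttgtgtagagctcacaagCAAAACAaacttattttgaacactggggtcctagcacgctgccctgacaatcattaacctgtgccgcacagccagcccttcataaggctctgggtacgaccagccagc
TTCNNNGAA, present in 7.02% of all windows, was found only in Igfals among the 10, 236 to 228 bases before the most upstream of its 3 listed starts.

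Igfbp3 encodes the main carrier of circulating ligand, made in liver chiefly by sinusoidal and stromal cells rather than hepatocytes. Its level at day 2 was 0.60, 0.18 and 0.48 in mutants, against 0.43, 0.60 and -0.02 in controls. The day 0 levels were 0.05, 0.77 and 2.45 in mutants and 0.45 and 1.27 in controls. The groups overlapped on both days, and the value of 2.45 was that of mutant day 0 replicate 3. The difference over both days was 0.16 ± 0.39, with an interval of -0.72 to 1.04 (limma adjusted p = 0.832). Without that array it was -0.18. The probe read is at chr11:7106594-7106653 (mm8, minus strand). The tested probe whose listed span is chr11:7108469-7109478 differed by -0.02 ± 0.25 over both days, and the one at chr11:7111815-7111874 was well above background on only 2 arrays and not tested.

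Igfbp5 encodes a binding protein of stromal and other cells that can also bind the acid-labile subunit. Its level at day 0 was 0.40, 0.88 and -0.48 in mutants, against 1.23 and 1.24 in controls. At day 2 it was 0.86, -0.16 and -0.34 in mutants and -0.21, -2.0 and -0.06 in controls. Both day 0 controls stood above all other arrays, and the day 2 genotypes overlapped. The differences were -0.97 ± 0.62 at day 0 and 0.88 ± 0.55 at day 2, and their difference was 1.84 ± 0.83 (limma adjusted p = 0.504, 0.319 and 0.345). These sizes were not stable. With pup sex as a covariate, its effect taken from day 2, the day 0 difference was 0.11 and the difference between days 0.76. Without day 2 control replicate 2 the day 2 difference was 0.25, without day 2 mutant replicate 1 it was 0.50, and without mutant day 0 replicate 3 the day 0 difference was -0.60. In controls the level at day 2 was lower than at day 0 by an estimated 3.97-fold (-1.99 ± 0.62, limma adjusted p = 0.0671), with day 2 control replicate 2 the lowest of all arrays. The probe read is at chr1:72791462-72791521 (mm8, minus strand), and the other, at chr1:72793999-72794058, differed by 0.26 ± 0.38 at day 2 and -0.27 ± 0.42 at day 0, smaller than the probe read.

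**Figure D3:**
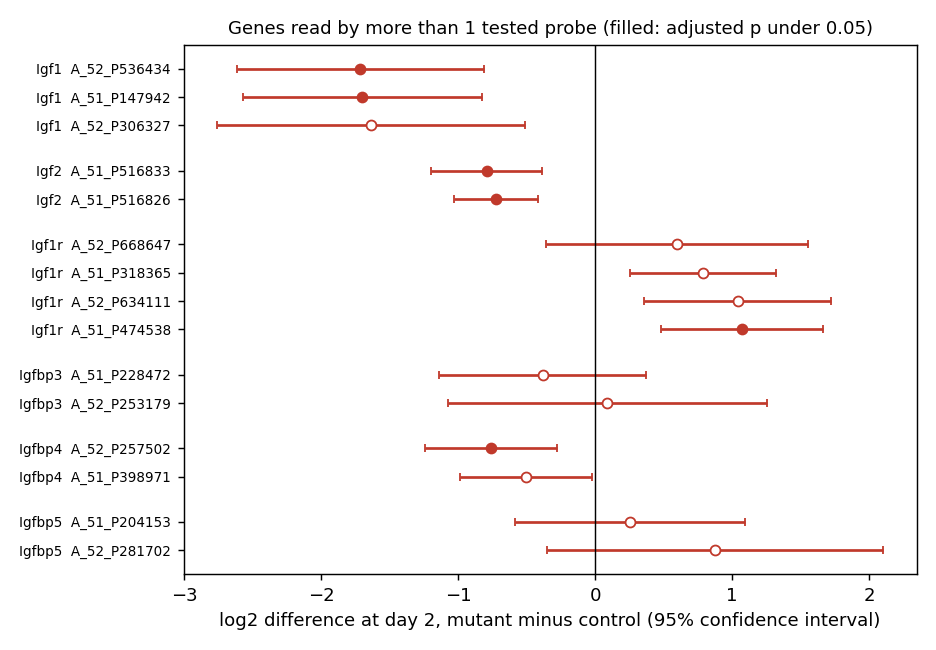
Day 2 difference (horizontal axis, log2 mutant minus control, with 95% confidence interval) of each tested probe for the genes with more than 1; filled marks have a limma adjusted p under 0.05, adjusted over all tested probes in this plot. All probes of Igf1, Igf2 and Igfbp4 lie below 0 and all of Igf1r above 0, while the probes of Igfbp3 lie on both sides. The dimmest Igf1 probe passed the filter only through the day 2 controls, so its side adds no support. The dimmest Igf1r probe was not well above background in any day 2 control.

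Across the 19 tested probes, 6 were called over both days, 1 at day 0 and 6 at day 2. Of all 27089 probes in this fit, 12.6%, 1.7% and 13.1% were called in these comparisons. All 6 called over both days were lower in mutants, and at day 2 the Igf1r probe was the exception.

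Markers of several cell types moved with genotype as well, and in whole liver fewer cells of a type and less RNA per cell cannot be told apart. Of 8 hepatocyte markers tested, 4 fell over both days. Their summed linear signal, relative to the 75th percentile, was 972 to 1280 in day 0 mutants and 1240 to 1310 in day 0 controls, and 569 to 726 in day 2 mutants against 970 to 1200 in day 2 controls. The brightest markers dominate such a sum: the mean log2 level of the 8 was 4.22 to 4.35 in day 0 mutants against 5.22 and 5.29 in day 0 controls, without overlap, and 2 of the 8 fell at day 0, where Igfbp2 also fell. Of 8 bile duct markers 7 rose over both days, and 5 rose at day 0, where 1.59% of all genes rose. Their sums were 103 to 393 in day 0 mutants and 67.3 to 74.3 in day 0 controls. At day 2 they were 265 to 330 in mutants and 80.4 to 132 in controls. Of 8 erythroid markers 4 fell over both days. Their sum was 41 to 79.8 in day 2 mutants against 146 to 233 in day 2 controls. The summed megakaryocyte markers were 42.4 to 47.3 in day 2 mutants and 81.4 to 90.7 in day 2 controls, and the granulocyte markers 112 to 130 in day 2 mutants and 156 to 182 in day 2 controls. The summed levels of these 5 lists thus did not overlap between genotypes at day 2. Of 10 macrophage markers 4 fell, of 6 megakaryocyte and 10 endothelial markers 1 each fell, and of 8 granulocyte markers none was called. The macrophage sums were 70.2 to 113 in day 2 mutants and 84.6 to 93.6 in day 2 controls. The endothelial sums were 14.8 to 19.7 and 18.1 to 22.5, and the sums of both lists overlapped between genotypes. Macrophage mean log2 levels were 0.738 to 1.216 in day 2 mutants and 1.528 to 1.705 in day 2 controls, without overlap. Endothelial ones were 0.085 to 0.398 and 0.338 to 0.545, with overlap. Of 10 stellate and fibroblast markers none was called over both days, and 3 rose at day 2. Over all genes 6.92% fell and 8.78% rose over both days, 0.689% fell at day 0 and 9.61% rose at day 2. The stellate sums were 64.6 to 104 in day 2 mutants and 59.3 to 65.2 in day 2 controls, with overlap. Their mean log2 levels were 1.241 to 1.856 in day 2 mutants and 0.835 to 1.059 in day 2 controls, without overlap. Every marker tested was well above background on all 11 arrays. The part of these lists in the results for the 10 genes was not tested.

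The genes whose levels ran most like those that fell over both days were read by Pearson's r over the 11 arrays, among 14569 named genes. These values describe the arrays, which share the 4 groups, and carry no test. Igfbp2 ran most like Nr0b2 (r = 0.955), a nuclear receptor corepressor of bile acid synthesis, Slc25a47 (0.954), a mitochondrial carrier of hepatocytes, and Rarres2 (0.949), which encodes chemerin. Igf2 ran most like Micall2 (0.963), Gata1 (0.956), the erythroid transcription factor and one of the erythroid markers above, and Cdc6 (0.953), a DNA replication licensing factor. Igf1 ran most like Usp7 (0.979), Rgp1 (0.972) and Gatb (0.969). Igfbp4 ran most like C2cd2l (0.985), Atp8a2 (0.975) and Tmprss6 (0.972), the hepatocyte protease that controls hepcidin. Without mutant day 0 replicate 3, all 12 values of r stayed at 0.955 or above.

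Around these 10 genes, 38 others of the pathway were listed and 35 tested. Pappa2 and Ins2 did not pass the filter on dim signals, and no probe on the array was matched to Irs2. Over both days 6 of the 35 rose and 5 fell, where 15.7% of all genes were called, with medians of -0.12 for the list and -0.05 for all genes. At day 0 1 rose and none fell, where 2.28% of all genes were called. At day 2 4 rose and 5 fell, where 16.2% of all genes were called, with medians of -0.16 and -0.10. The counts of genes that rose over both days and at day 2 include Igfbpl1, which passed the filter only through the day 2 mutants and so had to differ.

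Of the 5 genes that carry growth hormone and prolactin signals into the cell, Prlr and Stat5a fell and Ghr, Jak2 and Stat5b were not called. Prlr, the prolactin receptor gene, had levels at day 2 of -2.68, -2.92 and -2.76 in mutants, against -0.85, -0.60 and -1.50 in controls. Day 0 levels were -1.31, -0.71 and -0.65 in mutants and -0.12 and -0.11 in controls. The genotypes were apart on both days. Prlr was 3.50-fold lower in day 2 mutants (-1.81 ± 0.25, limma adjusted p = 0.00153), and -1.29 ± 0.19 over both days (limma adjusted p = 0.00189), a call that held in all 20 other settings.

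Stat5a encodes a transcription factor downstream of both receptors. It stood at 0.65, 0.81 and 0.72 in day 2 mutants against 1.02, 1.45 and 1.34 in day 2 controls, and at 0.28, 0.34 and 0.27 in day 0 mutants against 0.63 and 0.89 in day 0 controls. The difference over both days was -0.50 ± 0.11 (limma adjusted p = 0.0147), with no overlap on either day. Leaving out day 0 control replicate 2 ended this call (-0.44, adjusted p = 0.0797), as did normexp (adjusted p = 0.0521), the authors' deposited table (0.0524) and pup sex as a covariate (0.0816). Ghr, the growth hormone receptor gene, was at 2.72, 2.32 and 3.05 in day 2 mutants and 3.30, 3.59 and 3.22 in day 2 controls, and at 3.65, 3.57 and 2.70 in day 0 mutants and 3.03 and 3.06 in day 0 controls. Its differences were -0.67 ± 0.27 at day 2 and 0.26 ± 0.31 at day 0 (limma adjusted p = 0.129 and 0.72), and without mutant day 0 replicate 3 the day 2 difference was called (-0.67, adjusted p = 0.0281). Stat5b, the form that mediates most hepatic growth hormone action, differed by -0.23 ± 0.09 over both days (limma adjusted p = 0.127), with mutants below all controls on each day. None of the 4 feedback genes (Socs1, Socs2, Socs3 and Cish) was called between genotypes. At day 2 Cish was at 2.215, 2.357 and 2.637 in mutants, above all controls at 1.691, 1.66 and 1.93. Socs3 was at 1.72, 1.575 and 1.683 in day 2 mutants, below all controls at 2.441, 1.991 and 1.784. Socs1 and Socs2 overlapped at day 2, and all of these genes overlapped at day 0.

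**Figure D4:**
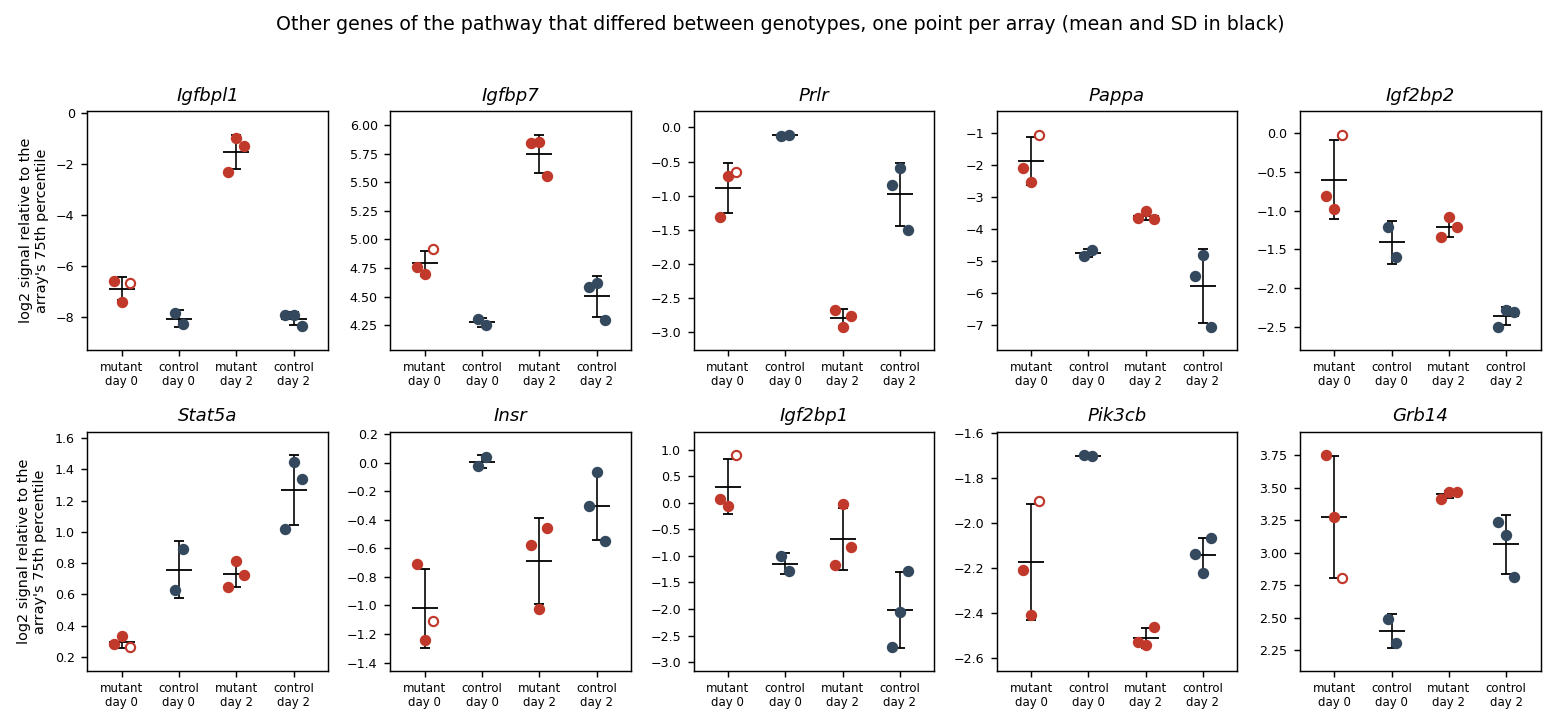
Levels of the 10 other pathway genes named first by p-value (vertical axis, log2 signal over the array's 75th percentile) on every array, mutants in red left of controls in dark blue for each day, with mean and SD in black and mutant day 0 replicate 3 as an open point. Igfbpl1 is high in the day 2 mutants alone, and Prlr is lowest there.

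Of the 3 related binding protein genes Igfbp7 rose, Igfbp6 was not called, and Igfbpl1 was detected in 1 group. Igfbpl1, which encodes a protein of the binding protein superfamily, was at -2.30, -0.99 and -1.30 in the day 2 mutants, and was well above background in those 3 livers and in no other. In day 2 controls its measured values were -7.90, -7.92 and -8.35, below the dimmest signals counted as above background. Against that limit Igfbpl1 was at least 22.4-fold higher in day 2 mutants. It passed the filter only through that group, so this is a description. Igfbp7, which encodes a secreted protein with low affinity for the ligands, was at 5.84, 5.85 and 5.56 in day 2 mutants against 4.58, 4.62 and 4.30 in day 2 controls. On the day of birth it was at 4.76, 4.70 and 4.91 in mutants and 4.30 and 4.25 in controls. It was 2.38-fold higher in day 2 mutants (1.25 ± 0.15, limma adjusted p = 0.000581), with the genotypes apart on both days.

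Of 4 tested genes for binding protein cleavage only Pappa was called. Pappa encodes the protease that cuts IGFBP4 and so frees ligand. At day 0 it was at -2.08, -2.52 and -1.05 in mutants, against -4.83 and -4.66 in controls. At day 2 it was at -3.65, -3.43 and -3.68 in mutants and -5.48, -4.80 and -7.05 in controls, of which 1 array was not well above background. Mutants were apart and higher on both days. Over both days Pappa rose by 2.53 ± 0.40 (limma adjusted p = 0.00306). After normexp background correction this was 1.13 (limma adjusted p = 0.00496), and the day 2 difference of 2.19 was 0.60 and no longer called (adjusted p = 0.174). The day 0 difference of 2.86 ± 0.60 (limma adjusted p = 0.0437) was lost when any 1 array was left out except day 2 control replicates 2 and 3 (adjusted p from 0.0529 to 0.263). The day 2 call was also lost without control replicate 1 or any 1 mutant of that day (0.0539 to 0.0793).

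Of the 4 tested genes for Igf2 mRNA binding and the Igf2 locus, Igf2bp1 and Igf2bp2 rose over both days and Igf2bp3 and H19 were not called. These 3 Igf2bp genes encode proteins of fetal tissues that bind Igf2 mRNA. Igf2bp2 was at -1.34, -1.09 and -1.21 in day 2 mutants against -2.49, -2.28 and -2.30 in day 2 controls, and at -0.81, -0.97 and -0.02 in day 0 mutants against -1.21 and -1.60 in day 0 controls. It was higher by 0.98 ± 0.18 over both days (limma adjusted p = 0.00625). Igf2bp1 was higher by 1.39 ± 0.31 (limma adjusted p = 0.0158), a call lost without day 0 control replicate 1 or 2 (adjusted p = 0.0501 and 0.0709) and with pup sex as a covariate (0.065). H19, the maternally expressed non-coding RNA beside Igf2 that shares its enhancers, was at 7.46, 7.37 and 7.49 in day 2 mutants and 8.18, 8.12 and 7.91 in day 2 controls. At day 0 it was at 8.03, 8.32 and 8.06 in mutants and 8.11 and 7.89 in controls. H19 thus fell at day 2 (-0.63 ± 0.14, limma adjusted p = 0.0157) and overlapped at day 0 (0.13 ± 0.16, adjusted p = 0.726), where Igf2 differed by -0.72 and -0.17. As for Igf2, the day 2 difference of H19 was nearer to 0 after quantile normalization and in the authors' deposited table (-0.14 and -0.17, limma adjusted p = 0.642 and 0.554). It was also not called without day 2 control replicate 1 or 2 or day 2 mutant replicate 2 (adjusted p from 0.0592 to 0.0635).

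Among the insulin receptor family and adaptors, of which 6 were tested, Insr fell and Grb14 rose over both days. Insr, the insulin receptor gene, was at -0.71, -1.24 and -1.11 in day 0 mutants against -0.03 and 0.04 in day 0 controls. At day 2 it was at -0.58, -1.02 and -0.46 in mutants and -0.30, -0.06 and -0.55 in controls, which overlapped. The difference over both days was -0.70 ± 0.16 (limma adjusted p = 0.015). With the mean of all its tested probes it was -0.32 (adjusted p = 0.121), and the call was also lost without day 0 control replicate 1 or 2 (adjusted p = 0.0553 and 0.0648) and with pup sex as a covariate (0.0631). Grb14, an adaptor that inhibits the insulin receptor, was higher by 0.63 ± 0.17 (limma adjusted p = 0.0346), a call kept only without day 0 mutant replicate 1 or 3 among the 11 single arrays left out, and lost with no filter on dim probes (adjusted p = 0.053) and with pup sex as a covariate (0.195). Irs1, a docking protein of both receptors, differed by -0.63 ± 0.30 over both days and was not called (limma adjusted p = 0.192).

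Of 9 genes of the PI3 kinase branch, Pik3cb and Pik3r1 fell over both days and 7 were not called. Pik3cb, a catalytic subunit gene, was lower on each day without overlap (-0.42 ± 0.11, limma adjusted p = 0.0312). This call was lost when any 1 array was left out except day 0 mutant replicates 2 and 3 (adjusted p from 0.0562 to 0.105). It was also lost with no filter on dim probes (0.0502), with trend and robust limma (0.0511) and with pup sex as a covariate (0.153). At day 2 the 2 genes of this branch that fell were Pik3r1, for the regulatory subunit (-0.64 ± 0.18, limma adjusted p = 0.0366), and Foxo3, for a transcription factor that the kinase restrains (-0.95 ± 0.27, limma adjusted p = 0.0414). These last 2 lie outside the rule for named genes and were chosen after their values were seen.

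**Figure D5:**
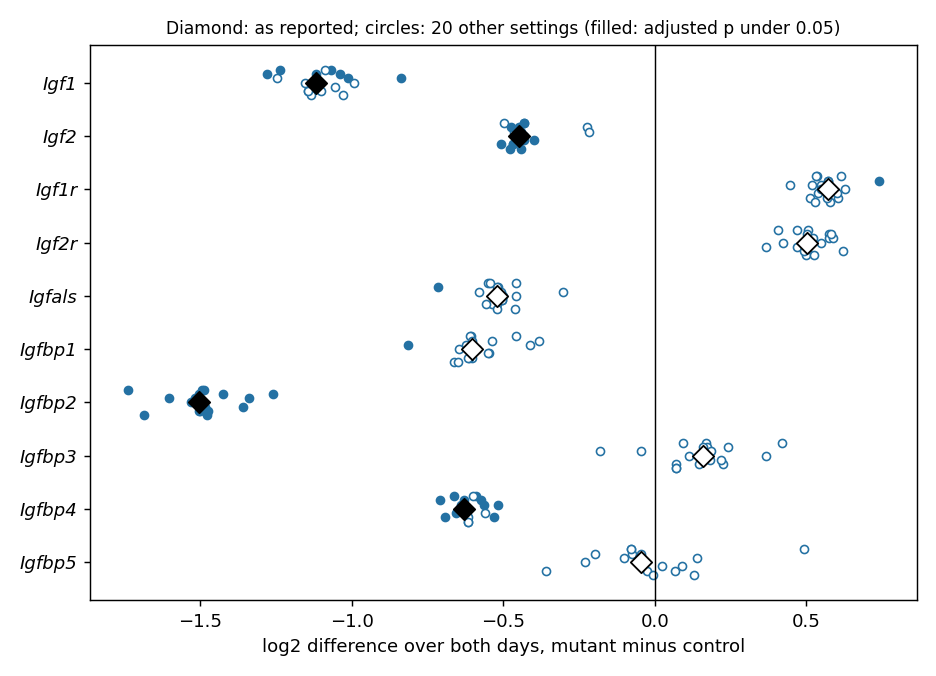
Difference over both days (horizontal axis, log2 mutant minus control) of each of the 10 genes as reported (diamond) and in 20 other settings (circles), filled where the limma adjusted p was under 0.05. Igfbp2 is filled in all settings, from -1.74 to -1.26, while Igf2 is nearer to 0 (-0.22) in 2 of them and Igfbp3 and Igfbp5 lie on both sides of 0.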

How the data were processed

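Liver RNA of 11 newborn mice was labelled with Cy3 and hybridised in 1 colour, per the labels' protocols. The deposited scanner files give each spot's raw and processed intensity. Per the file headers they come from Feature Extraction 9.5.3.1 under protocol GE1-v5_95_Feb07 on design 014868, and the processed intensity is background-subtracted. In addition, a deposited RMA set (per the submitters' processing notes) gives log2 values of 33322 probes. Its settings are not given in the sources used here, and it served as an alternative.

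Each value was log2 of the processed signal over the 75th percentile of non-control spots on the array, without outlier spots. A probe was tested if at least 1 group had it well above background on each of its arrays. Symbols came from RefSeq (GRCm38.p6) through accessions, symbols or synonyms, or else from the files, for 34871 of 41174 probes. Probe positions are the files' (mm8), and exon or intron was not assigned.

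Genes were fitted with limma 3.58.1 (R 4.3.3), 1 coefficient per group, with 7 residual and 2.39 prior degrees of freedom. All 10 genes were named, and of 38 pathway genes those with the 10 smallest p-values over both days among the called, and Ghr, Stat5b, Insr, Irs1, Irs2 and H19 whatever their values. Where no array of a group was above background, the fold is against the higher of the probe's own value and the dimmest signal above background on each of those arrays. The 10 genes, the lists and the tests were chosen with earlier results of these data known. The fit was tested on simulated data.

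Replicate numbers 1, 2 and 3 are slides, and slide 3 has no day 0 control. Deviations from group means correlated at 0.29, 0.23 and 0.256 for same-numbered day 2 arrays, which share a slide. For differently numbered ones they correlated at -0.211 to -0.0608. Deviations cancel out within a group, so the negative values follow from the positive ones and are no separate evidence. Whether the numbers pair the animals beyond the slide was not tested. The labels do not give litters.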

Additional observations from a re-analysis of the deposited data

Results flagged for a closer look

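The fitted mutant effect on Igfbpl1 was larger at day 2 than at day 0 by 5.36 ± 0.52 log2 units. The gene was well above background in the day 2 mutants and in no other group, and it passed the filter on dim signals only through them, so this value is a description and neither a test nor a bound. It was 2.25 after normexp background correction.

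For Foxo3 and Grb10 every mutant lay on one side of every control at day 0 and on the other side at day 2. They were picked by this pattern from the 35 tested pathway genes, and the share of all genes with it is not given here. On single days 15% of all genes were lower and 16.4% higher without overlap at day 0, and 24.3% and 20.6% at day 2. Sex and genotype coincide at day 0. Foxo3 was at -3.17, -3.52 and -2.33 in day 0 mutants against -4.17 and -4.0 in day 0 controls, and at -4.14, -4.53 and -4.31 in day 2 mutants against -3.35, -3.30 and -3.50 in day 2 controls. The difference between the days was -2.02 ± 0.40 (limma adjusted p = 0.0772). Grb10, an imprinted adaptor gene, was at 6.01, 5.89 and 5.45 in day 0 mutants against 6.23 and 6.31 in day 0 controls, and at 5.01, 4.83 and 5.0 in day 2 mutants against 4.63, 4.73 and 4.72 in day 2 controls. Its difference between the days was 0.74 ± 0.24 (limma adjusted p = 0.218), and neither gene passed that test.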

How the results depend on the processing

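The counts were recomputed in 20 other settings, 11 of which leave out 1 array, and no called difference of a named gene changed direction. Of the 10 genes, the number called over both days was 2 with slide as a replicate block and 1 with pup sex as a covariate. Of all genes 2169 and 1078 were called in these settings. At day 0 none of the 10 was called with pup sex, where 29 of all genes were. That fit carries the sex effect of the day 2 arrays over to day 0. At day 2 the number of the 10 was 2 with quantile normalization, with the authors' deposited table and with the mean of all tested probes. Of all genes 2256, 2213 and 2524 were called there. Between days in controls the number of the 10 was 0 with quantile normalization, the authors' table, no filter on dim probes, the replicate block or pup sex, and 2 with trend and robust limma. Over all genes these settings gave 1339, 1292, 1193, 1313, 316 and 2125 calls. Of the pathway genes, the number called at day 0 was 2 with normexp, the authors' table or trend and robust limma, and 0 with no filter, the filter on all 11 arrays, the mean of probes, the replicate block or pup sex. Their number for the difference between days was 0 with normexp and with the filter on all 11 arrays. With pup sex it was 5 over both days and 1 between days in controls. Of the single probes, those called over both days numbered 2 with quantile normalization, 3 with no filter, 2 with the replicate block and 1 with pup sex. At day 2 they numbered 3 with quantile normalization, at day 0 they numbered 0 with the replicate block or pup sex, and between days in controls 1 with normexp and 1 with the filter on all 11 arrays. Pappa and Igfbpl1, dim in controls, had smaller differences over both days with normexp (1.13 and 1.34). The cause was not tested.

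With 1 array left out, the counts over both days, at day 0, at day 2, between the days in effect, between days in mutants and between days in controls ran from 1 to 6, 0 to 1, 1 to 7, 0 to 1, 1 to 2 and 0 to 5 for the 10 genes. They ran from 5 to 13, 0 to 3, 4 to 14, 0 to 2, 6 to 9 and 1 to 11 for the pathway genes, and from 1 to 11, 0 to 1, 1 to 13, 0 to 2, 1 to 3 and 0 to 8 for the single probes. The highest counts at day 2 and between days in controls came without mutant day 0 replicate 3. The calls over all genes moved too. Without that array 4098 of 15948 genes were called over both days, 4766 at day 2 and 4350 between days in controls. With all arrays these were 2506, 2581 and 1790 of 15960. Without day 2 mutant replicate 2 they were 1688, 1402 and 1336 of 15958. A lone remaining day 0 control is assumed to vary like the other groups. The replicate block changed no other count of the 10 genes by over 1.5 times.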
